A study of Mus musculus with 4 samples.

Results

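Ccl2, Ccl7, Ccl8, Ccl12, Ccl3, Ccl4, Ccl6 and Ccl9 encode secreted CC chemokines that attract monocytes and other myeloid cells, and Ccr2 and Ccr1 encode the receptors through which those cells respond. The 10 genes were taken by their symbols from the 32285 mouse genes of 4 single-cell RNA-seq libraries of orthotopic KPC pancreatic tumors. The libraries held 68930, 14973, 48310 and 113686 UMIs of the 10 genes in Pdgfrb-TK/GCV, Pdgfrb-TK/PBS, WT/D-CAN and WT/PBS tumors. A UMI is a barcode that marks 1 captured RNA molecule.

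The study asked how depleting stromal cells changes the tumor microenvironment. Male mice made obese on a high-fat diet, on the C57BL/6 background, labelled as 7 months old although the study's methods give an older age, carried grafts of KPC cells, a mouse pancreatic cancer line, in the pancreas. Pdgfrb-TK mice express thymidine kinase from the Pdgfrb promoter, so that ganciclovir (GCV) kills dividing Pdgfrb-expressing cells, pericytes as well as fibroblasts, and they received GCV or PBS. WT mice received PBS or D-CAN, a peptide that homes to adipose stromal cells and is linked to an apoptosis-inducing peptide. The study states that D-CAN also acts on pericytes and further stromal cells bearing PDGFRβ and nonglycanated decorin. Each of the 4 conditions was 1 library, whose label names a single mouse while the methods describe tumors pooled by treatment. The extraction text attached to the samples describes nuclei from another tissue, and the cells of these libraries carried tumor, stromal and immune markers.

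CC chemokines are held on glycosaminoglycans and read by G-protein-coupled receptors on leukocytes. CCL2, CCL7, CCL8 and CCL12 are monocyte chemoattractant proteins, ligands of CCR2, the receptor that lets inflammatory monocytes leave bone marrow and enter inflamed tissue and tumors, and mouse CCL8 also acts at CCR8. CCL3, CCL4, CCL6 and CCL9 are the macrophage inflammatory protein group, of which CCL3, CCL6 and CCL9 act at CCR1. In pancreatic tumors, inflammatory fibroblasts, tumor cells and the macrophages themselves are known producers.

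The ligand genes lie in 1 stretch of mouse chromosome 11 (GRCm38, mm10), each a protein-coding gene. Ccl2 spans chr11:82035571-82037453, Ccl7 chr11:82045712-82047525, Ccl12 chr11:82101845-82103400 and Ccl8 chr11:82115185-82116799, all on the plus strand. Ccl9 spans chr11:83572919-83578636, Ccl6 chr11:83587882-83593087 and Ccl3 chr11:83647844-83649355, all on the minus strand, and Ccl4 lies at chr11:83662584-83664683 on the plus strand. Ccr1, at chr9:123962124-123968692 on the minus strand, and Ccr2, at chr9:124101950-124113557 on the plus strand, are neighbours on chromosome 9.

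Promoters of 2 neighbouring pairs are shown because the results below set the members of each pair side by side: Ccl8 and Ccl12, CCR2 ligands whose UMIs came largely from macrophages, and Ccl6 and Ccl9, CCR1 ligands of the wider myeloid compartment. Each is the 250 bases before the start of the gene, 5′ to 3′ on the gene's strand, from RefSeq on GRCm38.p6. Capitals mark matches to GAGGAA on either strand (PU.1), TGANTCA on either strand (AP-1), the kappaB motif on either strand, and TATAAA on the gene's strand. The windows are chr11:82101595-82101844 for Ccl12, chr11:82114935-82115184 for Ccl8, chr11:83578637-83578886 for Ccl9 and chr11:83593088-83593337 for Ccl6.
Ccl12: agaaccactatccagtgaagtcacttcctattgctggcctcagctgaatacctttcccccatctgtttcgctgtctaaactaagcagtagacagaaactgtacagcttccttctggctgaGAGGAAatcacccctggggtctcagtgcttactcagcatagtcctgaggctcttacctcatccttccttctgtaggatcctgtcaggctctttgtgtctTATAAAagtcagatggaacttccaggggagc
Ccl8: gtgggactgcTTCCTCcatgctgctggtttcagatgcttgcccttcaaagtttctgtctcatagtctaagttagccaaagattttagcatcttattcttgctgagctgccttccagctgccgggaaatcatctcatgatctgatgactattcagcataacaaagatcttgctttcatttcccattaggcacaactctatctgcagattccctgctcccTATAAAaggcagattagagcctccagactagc
Ccl9: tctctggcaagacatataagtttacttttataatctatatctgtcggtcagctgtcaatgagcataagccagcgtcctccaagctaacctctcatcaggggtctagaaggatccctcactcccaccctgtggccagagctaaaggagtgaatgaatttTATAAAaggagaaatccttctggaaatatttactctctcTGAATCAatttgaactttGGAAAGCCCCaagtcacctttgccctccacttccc
Ccl6: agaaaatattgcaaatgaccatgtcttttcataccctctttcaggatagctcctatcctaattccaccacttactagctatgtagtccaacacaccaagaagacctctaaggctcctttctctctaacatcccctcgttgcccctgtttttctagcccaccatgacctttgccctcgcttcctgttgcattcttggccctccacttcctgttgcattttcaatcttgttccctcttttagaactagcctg

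RefSeq promoters were matched for 7 of the 10 genes, and Ccl2, Ccl7 and Ccl4 had none matched. Ccl12 and Ccl8 each held a TATAAA, 31 and 32 bases before the start, and each held the PU.1 letters, at base -130 in Ccl12 and, on the opposite strand, at base -240 in Ccl8. Ccl9 held TATAAA at base -92, TGAATCA at base -53 and the kappaB motif on the opposite strand at base -35, while Ccl6 held none of the letters searched. Among 32536 promoters of the same length, 7.55% held TATAAA, 23.4% GAGGAA, 6.73% TGANTCA and 3.92% the kappaB motif. The longest run shared by any pair of the matched promoters was the 13 bases gccctccacttcc, at base -55 of Ccl6 and base -14 of Ccl9. The C/EBP letters TTGCNNAA and the interferon response motif, each searched on both strands and held by 9.57% and 2.98% of promoters, were found in none of the 7. These are matches of letters, and no binding was measured.

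After cells with fewer than 200 detected genes were removed, 12280, 10469, 10178 and 11627 cells remained in Pdgfrb-TK/GCV, Pdgfrb-TK/PBS, WT/D-CAN and WT/PBS, with 84000174 to 155382616 UMIs per library. WT/D-CAN and WT/PBS had 29.3% and 18.2% of cells above 20% mitochondrial UMIs, against 4.48% in Pdgfrb-TK/GCV and 8.42% in Pdgfrb-TK/PBS. Library pairs shared 25 to 40 cell barcodes, 382 cells in all. Cells were put into classes by markers: a class needed at least 3 of its markers with a UMI, and 25.7% to 34.8% of cells stayed ungated. The classes are ranges, not discrete types, and 233, 76, 93 and 92 of the 1749, 423, 949 and 937 macrophage/monocyte cells in the same library order sat at exactly 3 markers. In that order fibroblasts numbered 161, 353, 896 and 1437, with 12, 11, 45 and 41 at exactly 3 markers. The median macrophage/monocyte cell held no UMI of the fibroblast, T cell, B cell or endothelial markers, and 3.46 UMIs per 10000 of the KPC tumor markers against 47.8 in KPC tumor cells.

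Levels are given as CPM, UMIs of a gene per 1000000 UMIs of the same class and library, without division by gene length, since each molecule is tagged at 1 end. Folds are ratios of CPM with exact 95% intervals. With 1 library per condition there is no replicate and no test, and all intervals cover counting error only. A gene was compared in a class with at least 50 cells in both libraries and at least 100 UMIs over both, and is called higher or lower where the ratio of CPM + 1 passed 2-fold. The WT/PBS and Pdgfrb-TK/PBS libraries, both untreated, serve as a gauge of how far 2 control libraries differed: 13.9% of 15720 genes differed by more than 2-fold between them in all cells, and 8 of the 10 genes did. In fibroblasts 17.4% of 10222 genes and 6 of 6 members compared passed, and in macrophage/monocyte cells 17.3% of 7242 genes and 4 of 10 members. This gauge shares a library with each treatment comparison. The 2 PBS libraries also differ in mouse line and, by the study's text, in the route of PBS injection. Library, line and route cannot be told apart. CPM is relative to the other RNA of a sum, so a smaller number of cells of a type and less RNA per cell cannot be told apart in values over all cells.

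Ccl2, the archetypal monocyte attractant, was at 12.6 CPM in all cells of Pdgfrb-TK/PBS, 41.5 in Pdgfrb-TK/GCV, 315 in WT/PBS and 87.7 in WT/D-CAN. Ccl7, its near neighbour, was at 5.04, 7.96, 85.9 and 33.8 CPM in the same order. WT/PBS stood far above the other libraries for both genes, and Ccl2 was 24.9-fold (23.5 to 26.5) higher there than in Pdgfrb-TK/PBS. Ccl8 was at 9.70, 3.30, 28.2 and 28.5 CPM and Ccl12 at 5.62, 9.18, 2.17 and 13.3 CPM. Ccr2 was at 9.96, 22.5, 2.94 and 16.4 CPM, so that the library richest in Ccl2 was the one with the least Ccr2.

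Ccl6 was at 63.4, 283, 92.4 and 61.5 CPM and Ccl9 at 15.7, 76.1, 34.5 and 25.1 CPM, both highest in Pdgfrb-TK/GCV. Ccl3 was at 27.8, 26.6, 62.1 and 39.6 CPM and Ccl4 at 19.4, 40.6, 91.3 and 50.9 CPM, both highest in WT/PBS. Ccr1 was at 9.05, 28.6, 16.8 and 16.1 CPM, and its highest library, Pdgfrb-TK/GCV, was that of Ccl6 and Ccl9. Across the 31 combinations of library and class with at least 50 cells, Ccr1 and Ccl6 had the highest correlation of any pair of the 10 genes (Pearson r of 0.95 on log2(CPM + 1)), while Ccl7 and Ccl3 had the lowest (0.09). These points share libraries, depth and classes, and the correlations are a description.

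**Figure D1:**
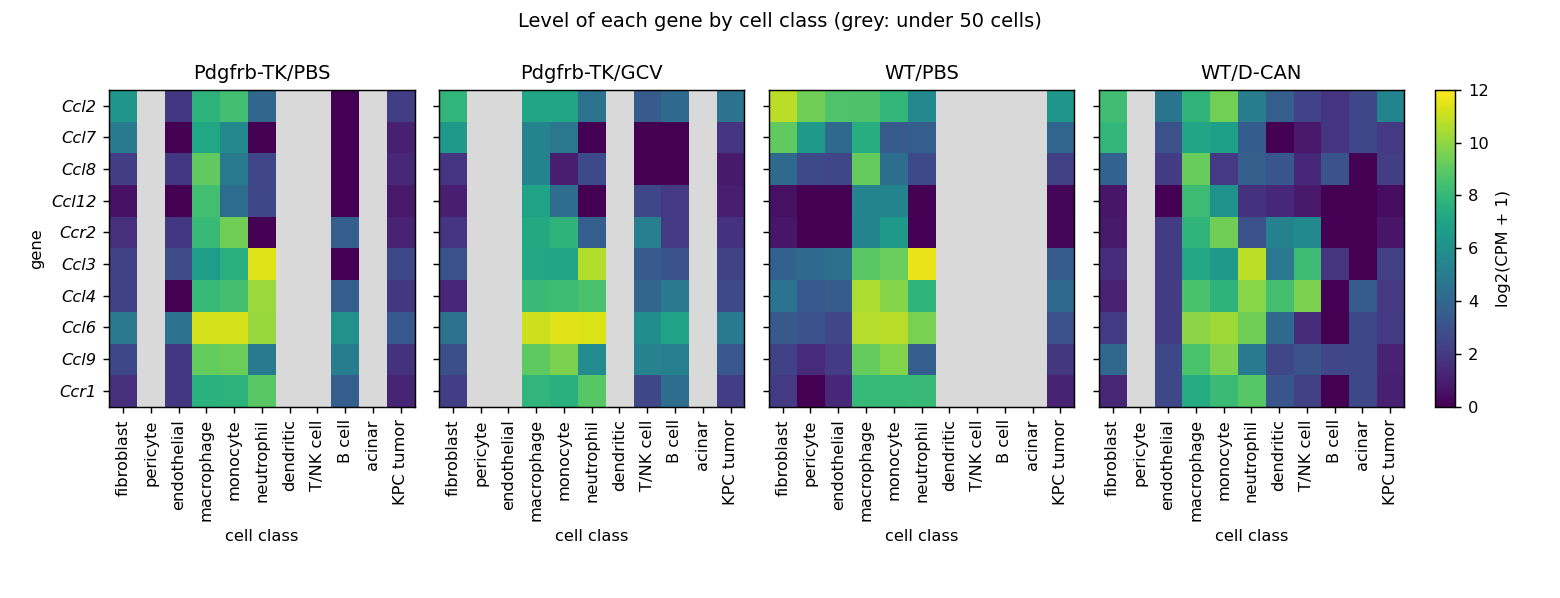
Level of each gene as log2(CPM + 1) (color) by gene (vertical axis) and cell class (horizontal axis) in the 4 libraries, with classes under 50 cells in grey. Ccl2 and Ccl7 are brightest in WT/PBS fibroblasts, Ccl6 in macrophages, monocytes and neutrophils, and Ccl3 in neutrophils.

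The genes fell into distinct source patterns. Ccl8 and Ccl12 were macrophage genes: macrophage/monocyte cells held 75.3%, 68.5%, 78.6% and 82.0% of all Ccl8 UMIs in Pdgfrb-TK/PBS, Pdgfrb-TK/GCV, WT/PBS and WT/D-CAN, and 79.2%, 80.1%, 85.5% and 91.6% of Ccl12. Cells of that class with more macrophage than monocyte markers are called macrophages here, and the others monocytes. Ccl8 was at 540.5, 40.5, 574 and 583 CPM in macrophages and at 30.98, 1.03, 19.2 and 3.01 CPM in monocytes. Ccl12 was at 329, 121, 40.6 and 296 CPM in macrophages and at 17.7, 18.7, 41.9 and 67.7 CPM in monocytes, so that WT/PBS was the library in which macrophages were not above monocytes.

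Ccl2 and Ccl7 had several sources. Fibroblasts held 14.4%, 8.55%, 61.1% and 29.1% of Ccl2 UMIs in the same order, macrophage/monocyte cells 29.9%, 29.7%, 5.46% and 14.7%, and KPC tumor cells 25.1%, 43.7%, 19.3% and 35.0%. For Ccl7 the fibroblast share was 13.5%, 17.2%, 69.0% and 57.8%. Fibroblasts were the leading named source of both genes in WT/PBS, and of Ccl7 in WT/D-CAN, although they made up 12.4% and 8.80% of cells. The KPC share of Ccl2 rested on many cells at a low level, 3.61, 23.1, 81.9 and 41.3 CPM, where free RNA also counts. In T/NK cells of WT/D-CAN, which should make little Ccl2, the level was 4.25 CPM and 1.03% of cells had a UMI after thinning to 2000 UMIs, against 3.12% of KPC tumor cells and 12.7% of fibroblasts, and median UMIs per cell were 3741 in T/NK cells, 23151 in KPC tumor cells and 10091 in fibroblasts. In WT/PBS the same classes gave no such margin, since T/NK cells were at 84.9 CPM (11 UMIs in 38 cells) and had a UMI in 7.41% of 27 thinned cells, and neutrophils were at 49.3 CPM with a UMI in 12.9% of 124, against 6.73% of KPC tumor cells. The KPC level of Ccl2 in WT/PBS, 81.9 CPM, lay between those of neutrophils and T/NK cells. The T/NK share had a wide interval (0.910% to 24.3%). The part of free RNA in the KPC level was not tested. Free RNA was not modelled.

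Ccl6, Ccl9 and Ccr1 were shared by macrophages, monocytes and, for Ccl6 and Ccr1, neutrophils. Macrophage/monocyte cells held 60.6% to 80.5% of Ccl6 UMIs and 60.4% to 80.0% of Ccl9. In neutrophils Ccl6 was at 1128, 2650, 758 and 672 CPM, whereas Ccl9 was at 28.8, 54.7, 10.95 and 29.4 CPM. Ccl9 was at 441 to 631 CPM in macrophage/monocyte cells, so that its neutrophil level was far below, which was not so for Ccl6, at 1011 to 2433 CPM there. Ccl3 was highest in neutrophils, at 2741, 1557, 3076 and 1762 CPM, and neutrophils held 24.5%, 8.40%, 23.3% and 44.5% of its UMIs. Macrophage/monocyte cells held 6.90%, 49.1%, 37.2% and 15.7%, and ungated cells 51.9% in Pdgfrb-TK/PBS. Ccl4 was divided between macrophage/monocyte cells, neutrophils and, in WT/D-CAN, T/NK cells, which held 31.1% of its UMIs there.

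**Figure D2:**
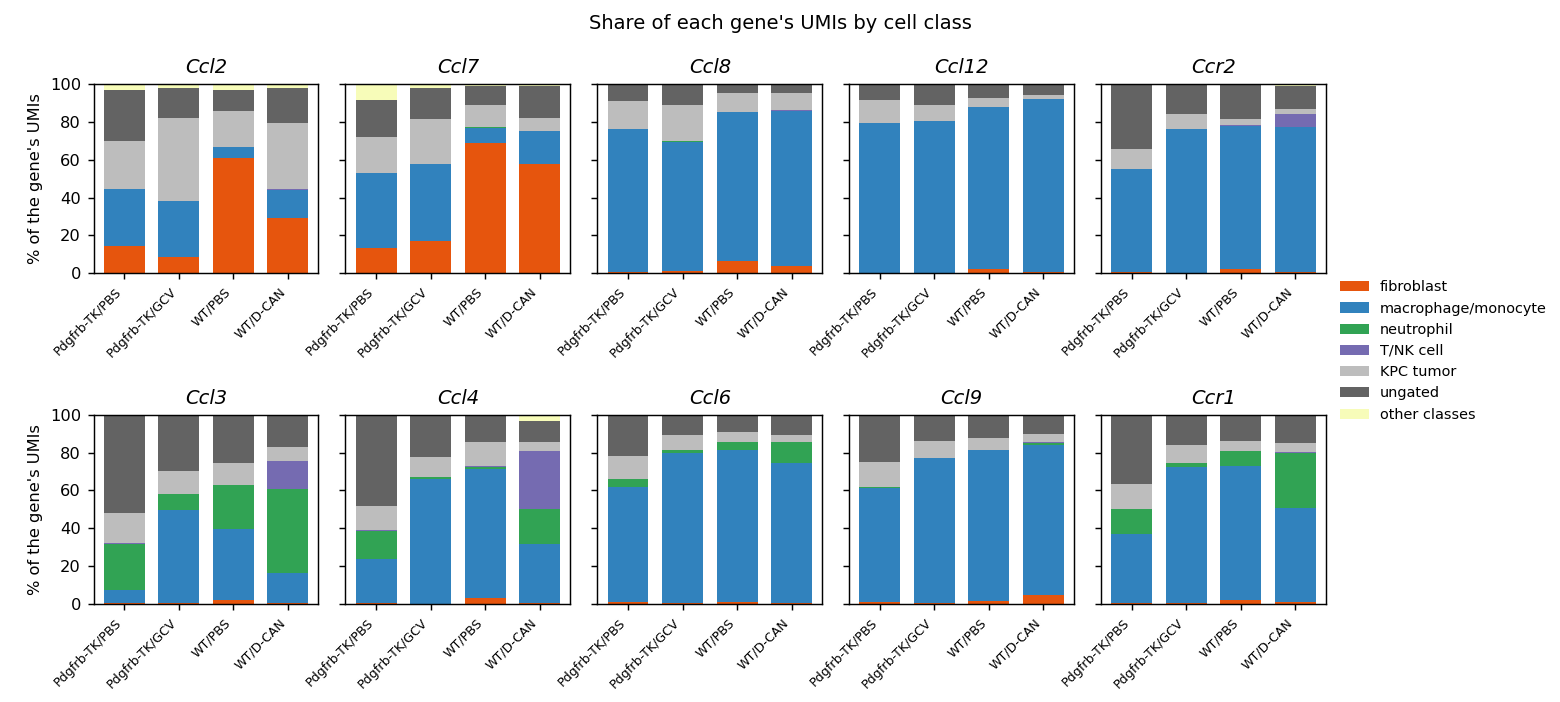
Percent of the UMIs of each gene (vertical axis) held by each cell class in the 4 libraries (horizontal axis), as stacked bars. Fibroblasts hold 61.1% of Ccl2 UMIs in WT/PBS and 8.55% in Pdgfrb-TK/GCV, macrophage/monocyte cells hold 68.5% or more of Ccl8 and Ccl12 in every library, and T/NK cells hold 31.1% of Ccl4 in WT/D-CAN.

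Receptor transcripts were on myeloid cells. Ccr2, the receptor of CCL2, was highest in monocytes, at 664, 225, 85.7 and 665 CPM in Pdgfrb-TK/PBS, Pdgfrb-TK/GCV, WT/PBS and WT/D-CAN, and was at 272, 155, 41.7 and 230 CPM in macrophages. After thinning each cell to 2000 UMIs, 62.7% of monocytes had a Ccr2 UMI in Pdgfrb-TK/PBS (49.1% to 74.96%, 59 cells), 30.4% in Pdgfrb-TK/GCV (26.9% to 34.1%, 652 cells), 16.5% in WT/PBS (10.7% to 24.0%, 133 cells) and 67.6% in WT/D-CAN (57.7% to 76.6%, 102 cells). Unthinned shares were 64.2%, 49.6%, 34.8% and 86.5%. Fibroblasts, which should lack Ccr2, had a UMI in 0.0763% to 0.671% of thinned cells in 3 libraries and in 0 of 320 cells in Pdgfrb-TK/PBS, which allows a share of up to 0.938%.

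T/NK cells of WT/D-CAN were a second Ccr2-bearing class, at 52.9 CPM, with a UMI in 9.03% of thinned cells and 6.44% of the library's Ccr2 UMIs. Ccr1, a receptor of CCL3, CCL6 and CCL9, was at 205, 221, 263 and 178 CPM in macrophage/monocyte cells and at 494, 475, 279 and 466 CPM in neutrophils. Neutrophils with at least 2000 UMIs had a Ccr1 UMI in 46.9%, 43.5% and 54.3% of cells in Pdgfrb-TK/GCV, WT/PBS and WT/D-CAN. Ccr1 and Ccl9 were the members for which no pair of libraries was 2-fold apart in macrophage/monocyte cells. Ccr1 in macrophage/monocyte cells with and without Ccr2 was found at these rates: 37.6%, 35.1%, 25.4% and 29.9% of thinned cells with a Ccr2 UMI also had a Ccr1 UMI, against 34.2%, 34.2%, 33.3% and 24.7% of those without.

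The GCV comparison asks what followed in tumors after Pdgfrb-expressing cells were killed. In all cells, 6 of the 10 genes were more than 2-fold higher in Pdgfrb-TK/GCV than in Pdgfrb-TK/PBS (Ccl2, Ccr2, Ccl4, Ccl6, Ccl9 and Ccr1) and Ccl8 was lower, where 5.66% of all 15346 genes compared were higher and 1.99% lower. The median log2 ratio of the 10 genes was 1.06, beside 0.09 for all genes. Ccl6 was 4.47-fold (4.35 to 4.61) higher, Ccl9 4.85-fold (4.58 to 5.14), Ccr1 3.16-fold (2.92 to 3.42) and Ccr2 2.25-fold (2.09 to 2.44). The macrophage/monocyte class was 14.2% of cells in Pdgfrb-TK/GCV and 4.04% in Pdgfrb-TK/PBS.

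Relative to the other RNA of macrophage/monocyte cells the picture differed. None of the 10 genes was more than 2-fold higher in CPM of that class, and Ccl7, Ccl8 and Ccl12 were lower, where 5.01% of 9114 genes were higher and 1.69% lower. Median UMIs per cell of the class were 2913 in Pdgfrb-TK/PBS and 6243 in Pdgfrb-TK/GCV, so CPM does not give molecules per cell. The CCR1-side genes were nearly level in CPM: Ccl6 was at 2391 CPM in Pdgfrb-TK/PBS and 2433 in Pdgfrb-TK/GCV (1.02-fold, 0.981 to 1.06), Ccl9 at 590 and 631, and Ccr1 at 205 and 221. The higher Ccl6, Ccl9 and Ccr1 levels over all cells therefore came with a larger share of macrophage/monocyte cells and with similar CPM inside the class.

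The CCR2-side genes were at lower CPM in macrophage/monocyte cells. Ccl8 was at 455 CPM in Pdgfrb-TK/PBS and 24.3 in Pdgfrb-TK/GCV, 18.7-fold (16.2 to 21.6) lower, with a UMI in 14.9% (11.1% to 19.4%) and 2.72% (1.99% to 3.62%) of thinned cells. Ccl7 was at 124 and 34.6 CPM, 3.58-fold (2.97 to 4.29) lower, and Ccl12 at 277 and 79.2 CPM, 3.50-fold (3.097 to 3.95) lower. The low Ccl8 in Pdgfrb-TK/GCV stood apart from all 3 other libraries, in which it ranged from 455 to 517 CPM. Ccl2 was at 236 and 133 CPM and Ccr2 at 338 and 184 CPM, both within 2-fold.

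The split of the class into macrophages and monocytes moved in the same comparison: monocytes were 673 of 1749 cells in Pdgfrb-TK/GCV and 81 of 423 in Pdgfrb-TK/PBS. This split depended on the markers, since a second, shorter list of monocyte markers without Chil3, set against the macrophage subset lists below, gave 254 of 1749 (14.5%) and 103 of 423 (24.3%), the opposite order. Chil3, a marker of the first list, was found in 44.1% of KPC tumor cells of Pdgfrb-TK/GCV and in 0.782% to 3.64% of those of the other libraries, and its part in the split was not tested. The second list kept Plac8, dropped from the first because 86.6% to 93.5% of KPC tumor cells held it. In Pdgfrb-TK/PBS 14.3% of thinned second-list cells had a Ccl8 UMI, against 1.69% of first-list monocytes and 18.1% of macrophages. In Pdgfrb-TK/GCV the shares were 3.85%, 0.153% and 4.39%. The lists thus do not mark the same cells. Within macrophages alone, Ccl8 was 13.4-fold (11.6 to 15.4) lower, Ccl7 3.41-fold and Ccl12 2.72-fold lower, so each kept its direction past 2-fold, where 1.21% of 7759 genes were lower and 4.16% higher. Monocytes alone had Ccr2 at 664 and 225 CPM, 2.95-fold (2.47 to 3.50) lower in Pdgfrb-TK/GCV, and Ccl2 at 341 and 133 CPM, 2.56-fold (1.997 to 3.25) lower, where 3.75% of 6033 genes were lower and 9.13% higher. By the second list neither passed 2-fold, Ccr2 being at 481 and 427 CPM and Ccl2 at 284 and 156 CPM, and a Ccr2 UMI was found in 53.6% (39.7% to 67.0%) and 46.2% (39.6% to 52.8%) of thinned cells. The macrophage subset lists were applied to the whole macrophage/monocyte class, so the C1q, Arg1 and Mmp12 macrophages named below can hold first-list monocytes. Their values therefore do not show a change inside macrophages alone. Cells with high C1q markers had Ccl8 at 461 and 46.1 CPM and Ccl12 at 421 and 144 CPM. Those with high Arg1 and hypoxia-linked markers had Ccl8 at 417 and 3.76 CPM, and they made up 751 of 1749 class cells in Pdgfrb-TK/GCV and 81 of 423 in Pdgfrb-TK/PBS. The 417 CPM rested on few cells. A Ccl8 UMI was found in 5 of 65 thinned Arg1 macrophages of Pdgfrb-TK/PBS and in 3 of 716 of Pdgfrb-TK/GCV. In the whole class of Pdgfrb-TK/PBS, 43 of 423 cells held 95.1% of the Ccl8 UMIs. Summed macrophage markers were at 8165 CPM in Pdgfrb-TK/PBS and 6252 in Pdgfrb-TK/GCV and summed monocyte markers at 2050 and 4668, and their part in the Ccl8 difference was not tested.

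**Figure D3:**
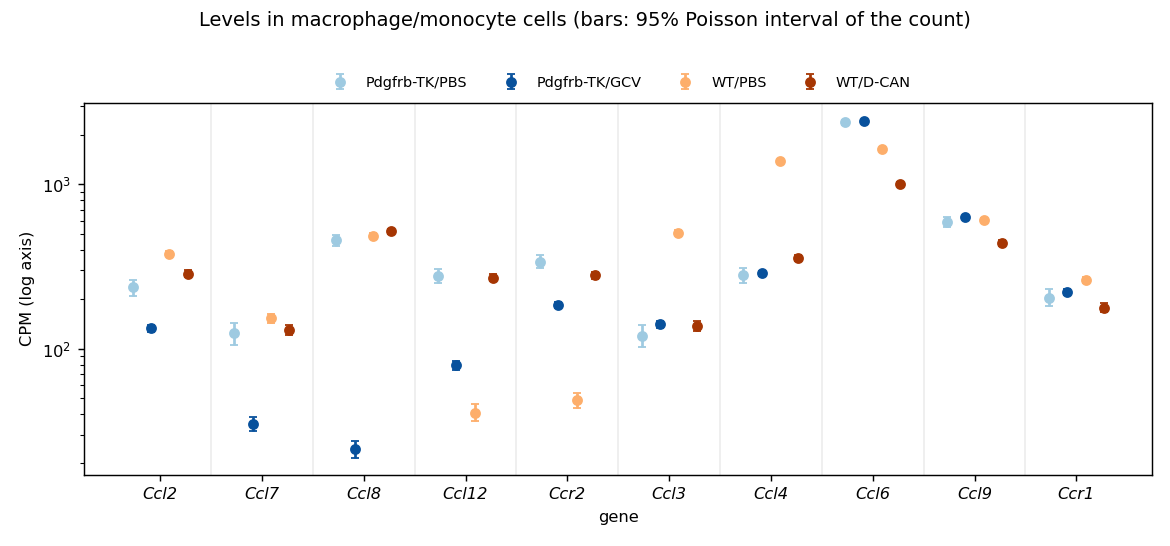
CPM on a log axis (vertical) of the 10 genes (horizontal) in macrophage/monocyte cells of the 4 libraries, with bars for the 95% Poisson interval of the count. Ccl8 is at 24.3 CPM in Pdgfrb-TK/GCV and between 455 and 517 elsewhere, Ccl12 and Ccr2 are lowest in WT/PBS, and Ccr1 spans 178 to 263.

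In fibroblasts that remained after GCV, Ccl2 and Ccl7 were both higher. Ccl2 was at 77.3 CPM in 353 fibroblasts of Pdgfrb-TK/PBS and 234 CPM in 161 fibroblasts of Pdgfrb-TK/GCV, 3.03-fold (2.51 to 3.66) higher. Ccl7 was at 28.8 and 90.3 CPM, 3.14-fold (2.32 to 4.31) higher. They were the only members with enough UMIs to be compared there, and both passed, where 2.06% of 5545 genes were higher and 4.18% lower. A Ccl2 UMI was found in 6.56% (4.11% to 9.86%) and 16.8% (11.2% to 23.8%) of thinned fibroblasts. In Pdgfrb-TK/GCV 1 fibroblast held 111 of the 453 Ccl2 UMIs, and 17 of 161 held 83.0%. Fibroblasts with inflammatory-type markers (Clec3b, Dpt, Pi16, Efemp1, Has1 and Il6) were 19.5% of the class in Pdgfrb-TK/PBS and 37.9% in Pdgfrb-TK/GCV. The summed CCR2 ligands were 1.93-fold (1.51 to 2.49) higher in that type and 4.27-fold (3.25 to 5.67) higher in myofibroblastic fibroblasts. Il6, one of the inflammatory-type markers, was itself higher in Pdgfrb-TK/GCV fibroblasts. The part of the shift in types, and of Il6 in the split, was not tested. The Ccl2 and Ccl7 levels of Pdgfrb-TK/GCV fibroblasts remained well below the 1721 CPM of Ccl2 and 530 CPM of Ccl7 in WT/PBS fibroblasts. Against that library the direction was the opposite.

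Ccl2 was also 6.40-fold (5.63 to 7.29) higher in KPC tumor cells of Pdgfrb-TK/GCV, at 23.1 CPM against 3.61, with a UMI in 2.78% and 0.731% of thinned cells. Ccl6 and Ccl9, myeloid genes that the tumor cells should lack, were 3.44-fold and 3.57-fold higher in the same cells, at 29.6 against 8.61 CPM and 8.64 against 2.42 CPM, where 4.3% of 13969 genes were higher and 1.7% lower. Whether free RNA from macrophages or fibroblasts sets these low levels was not tested. In neutrophils, Ccl6 was 2.35-fold (2.01 to 2.76) higher and Ccl4 3.17-fold (2.41 to 4.204) lower in Pdgfrb-TK/GCV, from 95 and 158 cells, where 3.70% of 568 genes were higher and 1.76% lower.

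Of 32 genes in 6 lists around this pathway (other CC chemokines, other receptors, atypical receptors, monocyte growth factors, inducers, and feedback targets of NF-kB), 27 could be compared in all cells and 9 were higher in Pdgfrb-TK/GCV and 0 lower, where 5.66% of all genes were higher. Between the PBS libraries, of 28 compared, 1 was higher and 13 were lower in Pdgfrb-TK/PBS. The 9 genes higher in Pdgfrb-TK/GCV included Ccl24, an eosinophil attractant of macrophages, and the receptors Ccr7, Cx3cr1 and Csf1r. Also among them were the scavenging receptor Ackr3, the cytokines Il1a and Il6, and the NF-kB inhibitor Tnfaip3. In fibroblasts, 10 were compared and 4 were higher: Il6 (log2 ratio 3.12), Ccl24 (1.53), Nfkbia (1.30) and Tnfaip3 (1.14), Nfkbia and Tnfaip3 being feedback inhibitors that NF-kB itself induces, and 1, the membrane-bound chemokine Cx3cl1, was lower (-1.17). Summed macrophage markers in fibroblasts were at 41.9 CPM in Pdgfrb-TK/PBS and 75.9 in Pdgfrb-TK/GCV. In KPC tumor cells 7 of 24 were higher, among them Ccl24, Il6 and Tnfaip3, and 0 lower, where 4.3% of all genes were higher. The part of RNA from other cells in the fibroblast ratios was not tested. In macrophage/monocyte cells 4 of 19 were higher, Ackr3 (2.88), Csf1 (1.55), Il6 (1.40) and Il1a (1.39), and 0 lower. The median log2 ratios of the compared pathway genes were 0.62, 0.56 and 0.52 in all cells, fibroblasts and macrophage/monocyte cells, beside 0.09, -0.10 and -0.04 for all genes.

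The D-CAN comparison asks the same after WT mice received D-CAN, which is aimed at adipose-stromal-type cells and also acts on pericytes. In all cells, 2 of the 10 genes were higher in WT/D-CAN than in WT/PBS (Ccl12 and Ccr2) and 2 lower (Ccl2 and Ccl7), where 8.92% of 16612 genes were higher and 2.70% lower. The whole distribution of genes was displaced in this comparison, with a median log2 ratio of 0.15 in all cells, 0.14 in fibroblasts and 0.18 in macrophage/monocyte cells, and the median of the 10 genes was -0.51 in all cells. Relative to the median gene the log2 ratios of the 4 genes were 2.02 for Ccl12, 1.99 for Ccr2, -1.99 for Ccl2 and -1.47 for Ccl7.

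Fibroblasts carried much of the Ccl2 and Ccl7 difference. In 1437 fibroblasts of WT/PBS Ccl2 was at 1721 CPM, and in 896 of WT/D-CAN it was at 321 CPM, 5.37-fold (5.18 to 5.56) lower. Ccl7 was at 530 and 246 CPM, 2.16-fold (2.07 to 2.26) lower. Thinned fibroblasts had a Ccl2 UMI in 36.0% (33.4% to 38.6%) and 12.7% (10.4% to 15.2%) and a Ccl7 UMI in 25.5% (23.2% to 27.9%) and 13.6% (11.3% to 16.2%). Of 7 members compared in fibroblasts, Ccl2, Ccl7, Ccl3, Ccl4 and Ccl6 were lower and Ccl9 higher, where 7.46% of 11291 genes were lower and 12.1% higher. Pdgfrb-TK/PBS fibroblasts, at 77.3 CPM of Ccl2 and 28.8 of Ccl7, lay below both WT libraries, so with that control in place of WT/PBS the D-CAN values were higher.

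The fibroblast difference held within fibroblast types. Fibroblasts with inflammatory-type markers had Ccl2 at 3684 CPM in WT/PBS (293 cells) and 465 CPM in WT/D-CAN (544 cells), and Ccl7 at 1138 and 343 CPM. Myofibroblastic ones had Ccl2 at 1237 (1124 cells) and 144 CPM (306 cells), and Ccl7 at 380 and 125 CPM. In every library both genes were higher in the inflammatory type than in the myofibroblastic one, among them Pdgfrb-TK/PBS with Ccl2 at 169 and 32.9 CPM and Pdgfrb-TK/GCV with 297 and 170 CPM. The inflammatory-type markers included the cytokine Il6, so the types were partly set by an inflammatory gene. The part of Il6 in these levels was not tested. A few cells held much of the signal: in WT/PBS the 144 fibroblasts with the most Ccl2 UMIs, of 1437, held 73.4% of the class's Ccl2, the highest with 392 UMIs, and in WT/D-CAN 90 of 896 held 95.5%.

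Ccl2 and Ccl7 were made by overlapping fibroblasts. Of thinned fibroblasts with a Ccl2 UMI, 19.0%, 44.0%, 53.9% and 50.5% also had a Ccl7 UMI in Pdgfrb-TK/PBS, Pdgfrb-TK/GCV, WT/PBS and WT/D-CAN, against 1.003%, 5.65%, 9.54% and 8.22% of fibroblasts without Ccl2. The Ccl2-positive cells behind these shares numbered 21, 25, 471 and 99. In macrophage/monocyte cells the corresponding shares were 33.3%, 18.1%, 28.9% and 25.5%.

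Stress-response genes and NF-kB feedback targets moved with fibroblast Ccl2. The summed level of the heat shock genes Hspa1a and Hspa1b in fibroblasts was 103 CPM in Pdgfrb-TK/PBS, 366 in Pdgfrb-TK/GCV, 3970 in WT/PBS and 641 in WT/D-CAN, the same order as Ccl2. The 6 NF-kB feedback targets summed to 299, 512, 1092 and 625 CPM, also in that order. The 8 immediate-early genes, early responders to many stimuli including tissue dissociation, summed to 1555, 2643, 4633 and 3206 CPM. The heat shock and immediate-early lists were added after the data were seen, and the part of dissociation or other stress in the Ccl2 and Ccl7 differences was not tested.

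**Figure D4:**
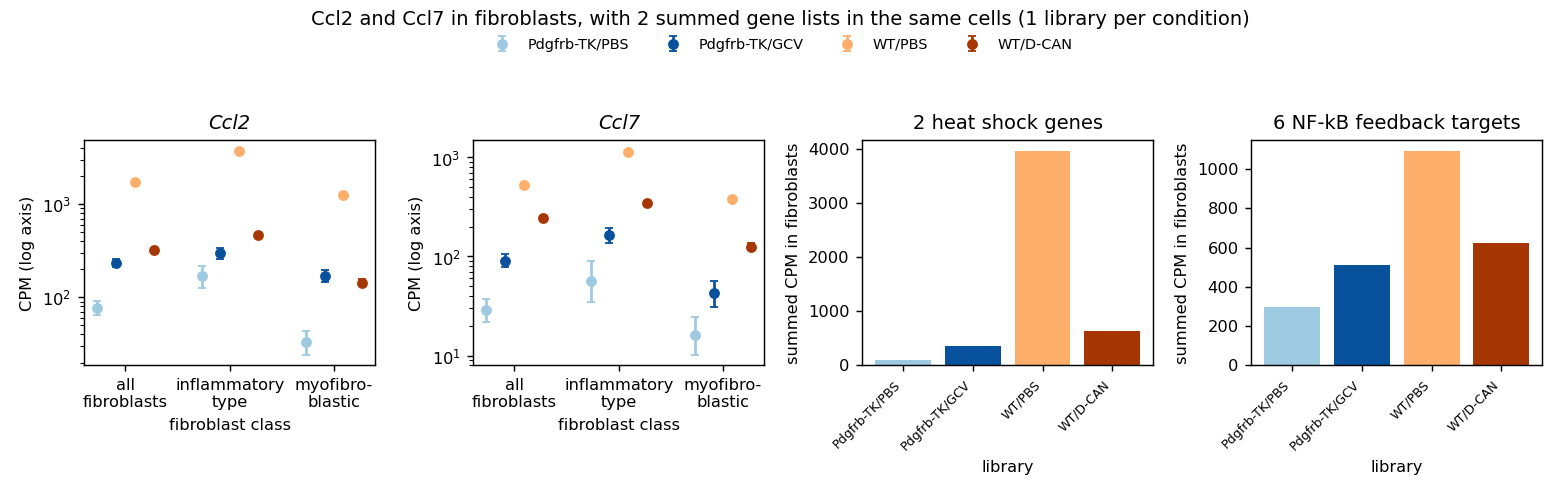
Left, CPM of Ccl2 and Ccl7 on log axes in all fibroblasts, inflammatory-type and myofibroblastic fibroblasts of the 4 libraries, with 95% Poisson intervals; right, summed CPM of the heat shock genes and of the NF-kB feedback targets in all fibroblasts as bars. In all fibroblasts both genes and both sums run in the same library order, from Ccl2 at 77.3 CPM in Pdgfrb-TK/PBS to 1721 in WT/PBS.

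Vascular cells followed the fibroblasts. Ccl2 in endothelial cells was at 411 CPM in WT/PBS (330 cells) and 23.7 in WT/D-CAN (72 cells), 17.3-fold (10.3 to 31.8) lower, where 5.53% of 4952 genes were lower and 6.76% higher. It was at 2.86 CPM in endothelial cells of Pdgfrb-TK/PBS, which rested on 1 UMI. Pericytes of WT/PBS had Ccl2 at 676 CPM in 101 cells, the other libraries holding 2 to 29 pericytes each. In KPC tumor cells Ccl2 was at 81.9 and 41.3 CPM in WT/PBS and WT/D-CAN, 1.98-fold (1.91 to 2.06) lower, within the 2-fold limit. Ccl7 (13.9 and 2.96 CPM), Ccl3 (9.91 and 3.86) and Ccl4 (16.1 and 3.03) were lower in the same cells, where 2.75% of 14550 genes were lower and 8.87% higher.

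Fibroblast Ccl9, a myeloid chemokine by its other sources, was 3.89-fold (2.91 to 5.25) higher in WT/D-CAN, at 15.2 CPM against 3.91, and 148 of its 157 UMIs there were in inflammatory-type fibroblasts. Ccl3 was at 1.94 against 12.3 CPM, Ccl4 at 1.16 against 22.7 and Ccl6 at 3.103 against 9.15 in WT/D-CAN and WT/PBS fibroblasts. These are low levels in a class that should make little of them, and summed macrophage markers in fibroblasts were 69.7 CPM in WT/D-CAN and 102 in WT/PBS. The part of macrophage RNA in them was not tested.

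In macrophage/monocyte cells of the D-CAN comparison, Ccl12 and Ccr2 were higher and Ccl3 and Ccl4 lower, where 10.8% of 8666 genes were higher and 4.08% lower. Ccl12 was at 40.8 CPM in WT/PBS and 270 in WT/D-CAN, 6.62-fold (5.83 to 7.53), and Ccr2 at 48.6 and 279 CPM, 5.75-fold (5.11 to 6.48). Ccl3 was at 509 and 138 CPM, 3.69-fold (3.42 to 3.99) lower, and Ccl4 at 1380 and 356 CPM, 3.88-fold (3.70 to 4.07) lower. Pdgfrb-TK/PBS, the other untreated library, had Ccl12 at 277 CPM, Ccr2 at 338, Ccl3 at 119 and Ccl4 at 280, close to WT/D-CAN. With that library in place of WT/PBS none of the 4 passed 2-fold, the log2 ratios being -0.038, -0.28, 0.21 and 0.35. Pdgfrb-TK/GCV had Ccl12 at 79.2 CPM, nearer to WT/PBS.

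Ccr2 held its direction in both branches of the class, 5.50-fold (4.80 to 6.34) higher in macrophages and 7.76-fold (6.20 to 9.80) in monocytes of WT/D-CAN, and 6.50-fold (5.14 to 8.31) by the second list of monocyte markers. Ccl12 in macrophages was 7.29-fold (6.37 to 8.39) higher, where 10.6% of 8332 genes were higher and 4.16% lower. Macrophage subsets were not alike for Ccl3 and Ccl4. In C1q macrophages Ccl3 was at 403 CPM in WT/PBS and 73.9 in WT/D-CAN and Ccl4 at 1008 and 218, and in Mmp12 macrophages, which carry matrix protease and lipid-handling genes, at 539 and 124 and at 1788 and 311. In Arg1 macrophages the levels were near each other, Ccl3 at 404 and 477 CPM and Ccl4 at 1019 and 995, from 180 and 99 cells. The difference between subsets was not tested.

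Ccl8 was nearly level in the D-CAN comparison, at 488 and 517 CPM (1.06-fold, 1.01 to 1.11), in contrast to Ccl12, which lies beside it. In C1q macrophages, where both were high, Ccl8 was at 461, 46.1, 743 and 781 CPM in Pdgfrb-TK/PBS, Pdgfrb-TK/GCV, WT/PBS and WT/D-CAN and Ccl12 at 421, 144, 63.2 and 369 CPM. The pair therefore differed by library: both were low in Pdgfrb-TK/GCV, and only Ccl12 was low in WT/PBS. Of thinned macrophage/monocyte cells with a Ccl8 UMI, 31.1%, 26.7%, 9.66% and 29.4% also had a Ccl12 UMI, against 15.6%, 6.58%, 4.37% and 17.97% of those without. Cells with a Ccl12 UMI were less often Ccr2-positive than the others in Pdgfrb-TK/GCV, 8.47% against 25.3%, and 29.6% against 37.5%, 6.00% against 7.11% and 30.7% against 32.1% in Pdgfrb-TK/PBS, WT/PBS and WT/D-CAN. Within macrophages alone the shares were 8.33% against 21.5%, 26.9% against 30.4%, 2.38% against 5.56% and 28.9% against 26.1% in that order. The WT/D-CAN order thus depended on the mix of macrophages and monocytes. Thinned monocytes with a Ccl12 UMI numbered only 2 to 10 per library.

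Ccl2 and Ccl7 were within 2-fold in macrophage/monocyte cells of the D-CAN comparison, Ccl2 at 379 and 287 CPM and Ccl7 at 153 and 130 CPM. Monocytes alone had Ccl2 at 242 CPM in 135 cells of WT/PBS and 706 in 104 cells of WT/D-CAN, 2.92-fold (2.51 to 3.41) higher, where 12.6% of 2842 genes were higher and 8.52% lower. By the second list of monocyte markers Ccl2 was nearly level, at 682 and 711 CPM (1.04-fold, 0.936 to 1.16), with a UMI in 30.95% and 27.9% of thinned cells, so the difference depended on the gate. A Ccl8 UMI was found in 23.8% and 4.65% of thinned second-list cells of WT/PBS and WT/D-CAN. In first-list monocytes it was found in 2.26% and 0.980%, and in macrophages in 26.8% and 22.6%. Ccl3 and Ccl4 were lower in the monocytes of the first list in WT/D-CAN, at 90.3 against 618 CPM and 226 against 917. Heat shock genes summed to 1133 CPM in WT/PBS and 4684 in WT/D-CAN in the monocytes of the first list. The NF-kB feedback targets summed to 1621 and 1312 CPM there. Ccl6 was at 1637 and 1011 CPM, Ccl9 at 608 and 441 and Ccr1 at 263 and 178 in macrophage/monocyte cells, each within 2-fold. Ccl6 was found in 71.9% (68.9% to 74.8%) and 51.0% (47.5% to 54.4%) of thinned cells.

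**Figure D5:**
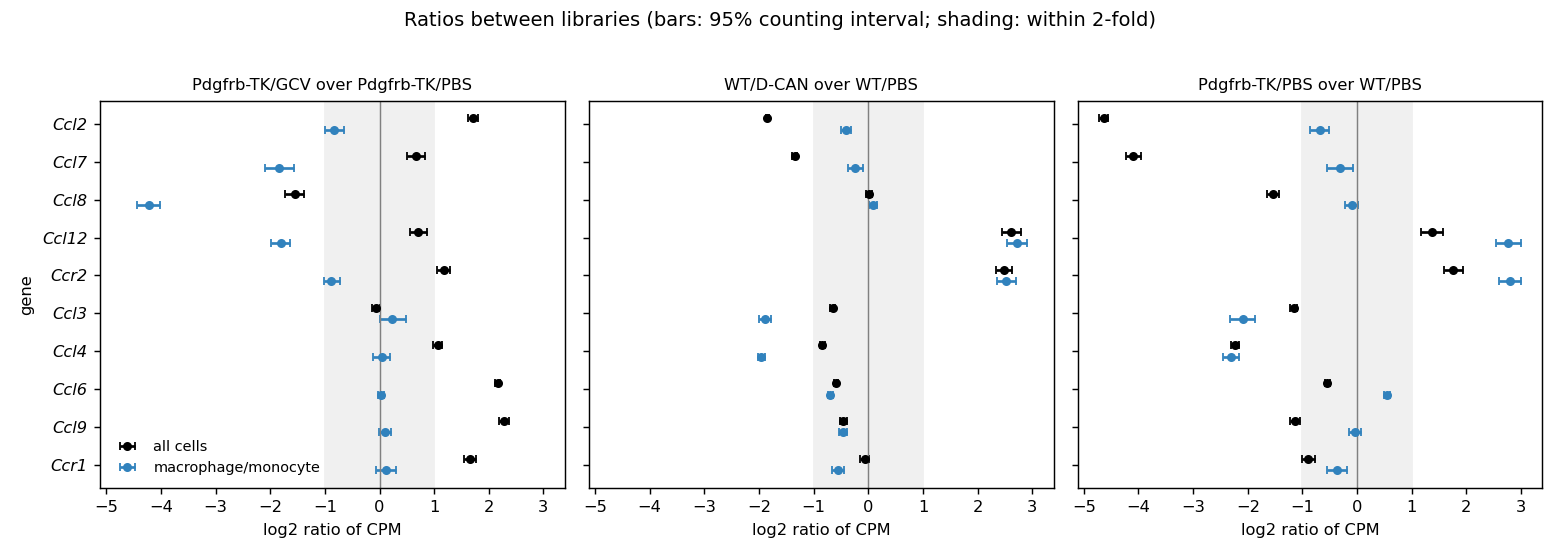
log2 ratio of CPM (horizontal axis) for the 10 genes (vertical axis) in all cells and in macrophage/monocyte cells, for both treatment comparisons and for the untreated libraries against each other, with 95% counting intervals and the range within 2-fold shaded. Ccl8 in macrophage/monocyte cells is lower after GCV by 18.7-fold, and Ccl12 and Ccr2 are on the same side in the D-CAN panel and in the panel of PBS libraries.

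Neutrophils in every library, and T/NK cells in WT/D-CAN, were further sources of Ccl3 and Ccl4. Neutrophil Ccl4 was at 1176 CPM in Pdgfrb-TK/PBS, 372 in Pdgfrb-TK/GCV, 227 in WT/PBS and 928 in WT/D-CAN, so that it was 4.08-fold (3.47 to 4.83) higher in WT/D-CAN than in WT/PBS, where 16.5% of 3119 genes were higher and 7.37% lower. Neutrophil Ccl3 stayed within 2-fold, 1.75-fold (1.65 to 1.85) lower. Thinned neutrophils with a Ccl3 UMI had Ccl4 in 23.1%, 20.8% and 48.1% of cells in Pdgfrb-TK/GCV, WT/PBS and WT/D-CAN, and those without in 5.26%, 5.77% and 9.17%. The Ccl3-positive cells behind these shares numbered 13, 72 and 160, of 32, 124 and 280 thinned neutrophils. The Pdgfrb-TK/GCV shares thus rest on few cells.

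T/NK cells of WT/D-CAN, 554 cells against 14 to 71 in the other libraries, had Ccl4 at 792 CPM and Ccl3 at 296 CPM. Of them 19.3% (15.9% to 23.1%) had a Ccl4 UMI after thinning, and the 56 cells with the most held 93% of the class's Ccl4 UMIs. Among T/NK cells with a Ccl3 UMI, 73.0% also had Ccl4, against 11.3% of those without. The class was too small in WT/PBS, at 38 cells, for a comparison. Dendritic cells of WT/D-CAN, 82 cells, had Ccl4 at 348 CPM and Ccr2 at 37.4 CPM.

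Of the 32 pathway genes, 30 were compared in all cells of the D-CAN comparison and 3 were higher (Ccl24, the fractalkine receptor gene Cx3cr1 and Ifng) and 2 lower (Ccl20 and Il6), a share of higher genes near the 8.92% of all genes. In fibroblasts 23 were compared, 9 were lower and 4 higher, where 7.46% and 12.1% of all genes were. The lower ones included Ccl20 (log2 ratio -3.91), Ccl17 (-2.04), Csf2 (-1.91), Tnfaip3 (-1.49), Icam1 (-1.40) and Nfkbia (-1.13), chemokines, a myeloid growth factor and NF-kB targets, and also Il1b, Tnf and Ccrl2. The higher ones were Ccl24 (3.42) and the scavenging receptors Ackr4 (2.72), Ackr1 (2.55) and Ackr3 (1.26), which bind chemokines without G-protein signalling. In macrophage/monocyte cells, of 20 compared, Cx3cr1 (3.42) and Ccl24 (2.13) were higher and Ccl17 (-2.38), Ccl5 (-1.69), Il6 (-1.43) and Ccrl2 (-1.07) lower, where 10.8% of all genes were higher and 4.08% lower. The median log2 ratios of the compared genes were -0.03 in all cells, -0.45 in fibroblasts and -0.46 in macrophage/monocyte cells, beside 0.15, 0.14 and 0.18 for all genes. Between the untreated libraries, 13 of 21 pathway genes compared in fibroblasts were lower in Pdgfrb-TK/PBS than in WT/PBS and 1, Ccl24, was higher. The 13 included Ccl20, Ccl17, Csf2, Tnfaip3, Icam1, Nfkbia, Tnf and Ccrl2. In macrophage/monocyte cells 10 of 20 were lower there, among them Ccl5, Il6 and Ccrl2, and Cx3cr1 and Ccl24 were higher. The genes named for both comparisons thus differed from WT/PBS in the same direction without D-CAN. This did not hold for all: Ackr1, Ackr3, Ackr4 and Il1b in fibroblasts were not past 2-fold between the untreated libraries. The same was so for Ccl17 in macrophage/monocyte cells.

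Summed over the 4 CCR2 ligands, macrophage/monocyte cells had 1092 CPM in Pdgfrb-TK/PBS, 271 in Pdgfrb-TK/GCV, 1060 in WT/PBS and 1203 in WT/D-CAN, while fibroblasts had 110, 328, 2268 and 580. The GCV comparison thus ran in opposite directions in the 2 classes, 4.03-fold (3.79 to 4.29) lower in macrophage/monocyte cells and 2.98-fold (2.55 to 3.49) higher in fibroblasts. In the D-CAN comparison the sum was 1.13-fold (1.10 to 1.17) higher in macrophage/monocyte cells and 3.91-fold (3.81 to 4.02) lower in fibroblasts. The sum of Ccl3, Ccl4, Ccl6 and Ccl9 in macrophage/monocyte cells was 3380, 3492, 4134 and 1945 CPM, 2.13-fold (2.08 to 2.17) lower in WT/D-CAN than in WT/PBS. Reads that match several of these related genes equally were not counted by the aligner's rule, and their part in the values was not tested.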

How the data were processed

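Single-cell RNA-seq (3′ end, UMI) was run on 4 pooled tumor suspensions, 1 library per condition. The deposited matrices hold UMI counts per gene and cell barcode, which the authors made with Cell Ranger and STAR 2.6 on mm10 per the submitters' processing notes. The file headers name Cell Ranger 7.0.0 and the study's methods an earlier version. No replicate exists, and doublets were kept because no caller was run. Libraries hold 84000174 to 155382616 UMIs, and intervals cover counting error only.

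Cells with at least 200 genes were kept. From 112 markers in 14 lists, 3 markers found in over 20% of KPC cells of every library were dropped. A cell joined a class when at least 3 of its markers had a UMI, its score (marker UMIs relative to cells with 4 or more markers) was at least 0.1, and the next class scored under 0.5 of it, which gave 12 classes after merging macrophages with monocytes and T with NK cells. UMIs were summed per library and class, and CPM had exact Poisson, shares Clopper-Pearson and folds conditional binomial intervals (95%). Log2 ratios add 1 CPM. Shares of cells were taken after thinning to 2000 UMIs, without shallower cells. Named genes are the 10 members, the pathway-list genes, and for each member the 3 genes with the most alike levels among those with at least 500 UMIs, and some are not reported here. The members and lists were chosen with earlier results of these data known. Python 3.11.15, numpy 2.4.6, scipy 1.17.1 and pandas 2.3.3 were used, and the ratio code was tested on simulated data. Alternatives were a stricter gate (4 markers), classes by likelihood, at least 500 genes, at most 20% mitochondrial UMIs, no top 8% of UMIs, another pseudocount, centring on the median gene, thinning, no minimum of UMIs, the other PBS library, and, added after the data were seen, no shared barcodes.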

Additional observations from a re-analysis of the deposited data

Results flagged for a closer look

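For 4 genes the treatment comparisons ran in opposite directions. The difference between the comparisons was not tested, since each rests on 1 library per condition. Log2 ratios are given as treated over PBS of the same mouse line. Ccl2 in all cells was at 1.64 for GCV and -1.83 for D-CAN, and in fibroblasts at 1.59 and -2.42. Ccl7 in fibroblasts was at 1.62 and -1.11. For both genes the GCV and D-CAN levels lay between the untreated libraries in fibroblasts, Pdgfrb-TK/PBS being lowest and WT/PBS highest.

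Ccl12 in macrophage/monocyte cells was at -1.79 for GCV and 2.70 for D-CAN, where WT/PBS had 40.8 CPM and Pdgfrb-TK/PBS 277. Ccl4 in neutrophils was at -1.66 and 2.02, where WT/PBS had 227 CPM and Pdgfrb-TK/PBS 1176.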

How the results depend on the processing

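No paired analysis was possible because each condition is 1 library and no replicate number is shared. Values are log2 ratios, and the cause of each shift was not tested. With the other PBS library as control, directions turned for the CCR2 ligand sum in fibroblasts (-2.79 for GCV, 2.39 for D-CAN) and for D-CAN in all cells (2.27). They also turned for GCV for Ccl2 in all cells (-2.90) and fibroblasts (-2.87), Ccl7 in fibroblasts (-2.54), Ccl4 in all cells (-1.15) and neutrophils (0.71) and Ccl12 in macrophage/monocyte cells (0.94). For D-CAN they turned for Ccl2 (2.70) and Ccl7 (2.53) in all cells, Ccl2 (2.04) and Ccl7 (3.05) in fibroblasts, Ccl12 (-0.038), Ccr2 (-0.28), Ccl3 (0.21) and Ccl4 (0.35) in macrophage/monocyte cells and Ccl4 in neutrophils (-0.34). Not every result above is in this list. By the levels given above, Ccl2 in KPC tumor cells of Pdgfrb-TK/GCV was higher than in Pdgfrb-TK/PBS but lower than in WT/PBS. Ccr2 in first-list monocytes of Pdgfrb-TK/GCV was lower than in Pdgfrb-TK/PBS but higher than in WT/PBS. The CCR2 ligand sum for GCV in all cells became -2.78, and the sum of Ccl3, Ccl4, Ccl6 and Ccl9 became 0.60 in all cells and -0.24 in macrophage/monocyte cells for GCV, and 0.49 and -0.80 for D-CAN.

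For GCV, the CCR2 ligand sum in all cells (0.89) became 0.74 without the top 8% of UMIs, 0.80 centred, 0.74 with a pseudocount of 10 and 0.33 thinned. It became, from -2.01 in macrophage/monocyte cells, -2.11 with the stricter gate, -1.84 by likelihood and -1.92 without the top 8%, and in fibroblasts (1.57) 1.34 by likelihood and 1.22 without the top 8%. The sum of Ccl3, Ccl4, Ccl6 and Ccl9 in all cells (1.75) became 1.85 with at least 500 genes, 1.68 without the top 8%, 1.66 centred and 1.68 with a pseudocount of 10. From 0.05 in macrophage/monocyte cells it became 0.10 by likelihood, 0.13 without the top 8% and -0.080 thinned.

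For D-CAN, the CCR2 ligand sum in all cells (-1.40) became -1.55 without the top 8%, -1.55 centred, -1.35 with a pseudocount of 10 and -1.17 thinned. From 0.18 in macrophage/monocyte cells it became 0.28 by likelihood, 0.13 without the top 8%, 0.0016 centred and -0.015 thinned, and in fibroblasts (-1.97) -1.57 by likelihood and -2.11 centred. The sum of Ccl3, Ccl4, Ccl6 and Ccl9 in all cells (-0.66) became -0.80 without the top 8%, -0.81 centred, -0.63 with a pseudocount of 10 and -0.27 thinned. From -1.09 in macrophage/monocyte cells it became -1.12 with the stricter gate, -1.03 by likelihood, -1.26 without the top 8%, -1.27 centred and -1.28 thinned.

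Without a minimum of UMIs, genes past 2-fold numbered 1955 in place of 611 for GCV in macrophage/monocyte cells, 2737 in place of 346 in fibroblasts, and 2610 in place of 1291 for D-CAN in macrophage/monocyte cells. Unthinned, the share of fibroblasts with a Ccl2 UMI was 34.2%, 10.2%, 22.7% and 47.0% in Pdgfrb-TK/GCV, Pdgfrb-TK/PBS, WT/D-CAN and WT/PBS, and that of macrophage/monocyte cells with Ccr2 39.4% in Pdgfrb-TK/GCV, 45.3% in WT/D-CAN and 17.3% in WT/PBS. Of 480 alternatives for single-gene ratios, 291 moved by less than the counting interval, 174 by more and 15 turned, and all that turned did so with the other PBS library. Depth limits classes under 50 cells and genes under 100 UMIs, which were not compared.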

Other observations

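Small classes carried high levels of Ccl2 and Ccl7. Mesothelial cells, which line the abdominal cavity, had Ccl2 at 863 CPM in 10 cells of Pdgfrb-TK/GCV, 207 in 12 cells of Pdgfrb-TK/PBS and 834 in 22 cells of WT/D-CAN. Mast cells or basophils had Ccl7 at 3021 CPM in 1 cell of Pdgfrb-TK/GCV, 2004 in 7 cells of Pdgfrb-TK/PBS and 559 in 6 cells of WT/PBS. These classes were too small for a comparison.

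Genes most alike in level across the 31 combinations of library and class are given as a description, since the points share libraries and classes. For Ccl2 they were Hspa5 (Pearson r of 0.88) and Metrnl (0.83), and for Ccl7 Spon1 (0.87), Col14a1 (0.86) and Cd302 (0.84). Ccl8 was nearest to Fcrls (0.82), St18 (0.81) and H2-M2 (0.75), and Ccl12 to Msr1, C3ar1 and Ptpro (each 0.92). Ccr2 was nearest to Ms4a6c (0.94) and Tifab (0.92), and Ccr1 to Nlrp3, Fcer1g and Itgam (each 0.96). Ccl3 was nearest to Mapkapk2 (0.93), Lilr4b (0.92) and Clec4e (0.92), Ccl4 to Aqp9, Bcl2a1a and Adam8 (each 0.90), Ccl6 to Lyz2 (0.94), Wfdc17 (0.93) and F10 (0.93), and Ccl9 to Tfec (0.95), Msr1 (0.93) and Lyz2 (0.92).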
